A study of Homo sapiens with 8 samples.

Results

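The sgRNAs described here target 24 genes of prostaglandin and leukotriene signaling, chosen by gene name from a screen for genes whose loss changes the level of PRMT5, the main symmetric arginine methyltransferase. The names cover prostaglandin synthases and receptors, lipoxygenases, phospholipases A2, leukotriene A4 hydrolase, the cysteinyl leukotriene receptor and the thromboxane pair, and they matched 168 of 10429 sgRNAs, 7 for each gene. Of these, 98 sgRNAs target 14 genes of synthesis and 70 target 10 receptors. The screen used Cas9-expressing, platinum-resistant cells of COV362, an established cell line of high-grade serous ovarian cancer. The transduced cells were split into 4 replicates only after selection, cultured, stained for PRMT5 and sorted, which gave 4 libraries of the cells with the least PRMT5 (PRMT5lo) and 4 of the cells with the most (PRMT5hi). All groups carried Cas9 and the same sgRNA library, and both populations of a replicate came from the same culture. The values are the authors' means over the 4 libraries of a population, in CPM, read counts scaled to one common total of reads mapped to sgRNAs.

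Eicosanoids are signaling lipids made from arachidonic acid. Phospholipases A2 free fatty acids from membranes, cyclooxygenases and terminal synthases turn arachidonic acid into prostaglandins and thromboxane, and lipoxygenases turn it into leukotrienes and related acids. The products leave the cell and act on G protein–coupled receptors of the same or neighboring cells, and the pathway is best known for inflammation, pain, platelet activation and airway constriction. An sgRNA marks the gene that Cas9 cut in the cell that carries it. The study's methods and the legend of its plot give opposite signs to the ratio, and every direction here follows the legend. A higher abundance in PRMT5lo cells marks a gene whose disruption was found more often in cells with little PRMT5.

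No gene of the pathway was called in either direction. A gene was called when the one-sided p-values of its sgRNAs, combined by Fisher's method, gave a p under 0.01 and the mean log2 ratio of PRMT5lo over PRMT5hi passed 0.25 in that direction. At these limits 0 of 24 genes were called toward PRMT5lo, against 0.704% of all 1420 targeted genes, and 0 of 24 toward PRMT5hi, against 0.845%. From the same test at an unadjusted p under 0.05, with no limit on the mean, 2 genes passed toward PRMT5lo (*PLA2G4A* and *ALOX15*) and 0 toward PRMT5hi, against 8.59% and 9.30% of all genes. Stouffer's method gave 0 and 0 at the same limit, and its shares of all genes are not reported here. Its smallest unadjusted p-values were 0.0800 for *PLA2G4A* toward PRMT5lo and 0.0545 for *ALOX5AP* toward PRMT5hi. By Fisher's method, the smallest p-values of the 24 genes, adjusted by Benjamini-Hochberg over all genes, were 0.365 toward PRMT5lo and 0.647 toward PRMT5hi. The 24 gene means lay between -0.247 and 0.13 with a median of 0.011, and 13 were above 0, while over all targeted genes the median was -0.0033 and 48.5% were above 0. Over single sgRNAs, the median ratio was 0.011 for the 500 controls, -0.011 for the pathway and -0.0018 for all targeting sgRNAs. Centred on the control median, 11 of the 24 gene means were above 0. The SD of the gene means was 0.093 for the pathway and 0.12 for all genes.

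The p-value of a single sgRNA comes from the beta-binomial test of CB2, which compares its share of reads in the 4 libraries of each population and takes its tails from a t distribution. It is an approximate test, and an exact one could not be run because the values used pool the libraries. Each log2 ratio is that of CPM + 1, which makes ratios of scarce sgRNAs too small. The library SE of a CPM value or ratio given below comes from the authors' variance over the 4 libraries of each population, and that of a gene mean treats its sgRNAs as independent. It had a median of 0.097 over the 24 genes and ran from 0.062 to 0.14. Only *PLA2G4A*, which had the smallest library SE, had a mean more than 2 library SEs from 0, compared with 126 of all 1420 genes. For sgRNAs 1, 2, 6 and 7 against *PLA2G4A*, the variance in 1 population was at the lower bound of CB2's estimate, that of read counting alone. The SD over the 7 sgRNAs of a gene had a median of 0.25, and sgRNAs of a gene are not biological replicates.

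The median gene means of synthesis genes and receptors lay on opposite sides of 0 by small amounts. The median gene mean was 0.058 for synthesis, with 10 of 14 means above 0, and -0.039 for the receptors, with 3 of 10 above 0. Synthesis here includes *PLA2G7*, a phospholipase A2 by name whose enzyme does not serve to release arachidonic acid. The average of the gene means was 0.027 for synthesis and -0.040 for the receptors. At the level of single sgRNAs, 50 of 98 ratios for synthesis and 30 of 70 for the receptors were above 0. For the 4 genes of prostanoid synthesis alone, 3 of 4 means were above 0, but their average was -0.020 and 11 of 28 ratios were above 0. With the median over a gene's sgRNAs in place of the mean, the medians were 0.021 for synthesis (8 of 14 above 0) and -0.018 for the receptors (2 of 10 above 0). Centred on the control median, 10 of 14 means for synthesis and 1 of 10 for the receptors were above 0. The difference between these classes was not tested, and the SD of the gene means was 0.11 for synthesis and 0.056 for the receptors.

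Among phospholipases A2, the mean log2 ratio was above 0 for 4 of 6 genes, with a median of 0.077. *PLA2G4A*, the cytosolic enzyme that releases arachidonic acid from membranes when calcium rises, had the highest mean of the pathway, 0.13 (SD 0.30 over sgRNAs, library SE 0.062), and 159 of the 1420 genes had a higher one. The gene spans bases 186828949 to 186988981 of chromosome 1 (GRCh38). Its sgRNA 2 stood at 61.4 CPM (library SE 2.69) in PRMT5lo cells and 35.9 CPM (SE 1.48) in PRMT5hi cells, a log2 ratio of 0.76 (SE 0.085). This was the smallest p-value of a single sgRNA in the pathway, 0.000268 one-sided, and it did not pass adjustment over all targeting sgRNAs (adjusted p of 0.124). No other sgRNA against the gene had a p under 0.05, and for 4 of them the populations differed by less than 1 library SE of the ratio. In PRMT5lo against PRMT5hi cells, sgRNA 1 had 87.5 and 88.4 CPM, sgRNA 3 had 139 and 129 CPM, and sgRNA 4 had 98.6 and 97.7 CPM. Likewise sgRNA 5 had 120 and 103 CPM, sgRNA 6 had 118 and 133 CPM, and sgRNA 7 had 143 and 143 CPM. Combined by Fisher's method, *PLA2G4A* had a one-sided p of 0.0157 (adjusted p of 0.365), which rested on sgRNA 2, since without it the p was 0.509 and the mean 0.027. In PRMT5hi cells the variance of sgRNA 2 was at the lower bound of CB2's estimate, that of read counting alone. With the variance taken from the trend over abundance, its p was 0.0276.

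*PLA2G2E*, a secreted phospholipase, had a mean of 0.13 (SD 0.25, library SE 0.10), with 5 of 7 sgRNAs above 0. Its sgRNA 5 had 87.5 CPM in PRMT5lo cells and 56.7 CPM in PRMT5hi cells (log2 ratio 0.62, library SE 0.22, one-sided p of 0.0200, adjusted p of 0.738). Further sgRNAs above 0 were sgRNA 2 with 71.5 and 64.1 CPM in PRMT5lo and PRMT5hi cells, sgRNA 4 with 140 and 126 CPM, sgRNA 6 with 157 and 140 CPM and sgRNA 7 with 121 and 118 CPM. Below 0 were sgRNA 1, with 44.8 CPM in PRMT5lo and 49.9 CPM in PRMT5hi cells, and sgRNA 3, with 67.6 and 70.6 CPM. All of these except sgRNA 5 differed between populations by less than 1 library SE of the ratio. Combined, *PLA2G2E* had a one-sided p of 0.207 (adjusted p of 0.847), and without sgRNA 5 the p was 0.601 and the mean 0.049.

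The 3 group II secreted enzymes lie in a cluster on chromosome 1, where *PLA2G2A* follows *PLA2G2E* after 52 kb and *PLA2G2D* follows after a further 132 kb. Their means did not move together. *PLA2G2A*, the enzyme found in inflammatory fluids and active against bacterial membranes, had a mean of -0.024 (SD 0.32). It held sgRNAs at an unadjusted p under 0.05 in both directions. sgRNA 1 against *PLA2G2A* had 64.3 CPM (library SE 5.87) in PRMT5lo cells and 47.6 CPM (SE 1.71) in PRMT5hi cells, while sgRNA 6 had 109 CPM (SE 9.48) and 163 CPM (SE 3.17). The ratio of sgRNA 6 was -0.58 with a one-sided p of 0.00360 toward PRMT5hi, which did not pass adjustment (adjusted p of 0.393). In PRMT5hi cells the variances of sgRNA 1 and sgRNA 6 were also at the lower bound. *PLA2G2D* had a mean of -0.0049 (SD 0.24) and no sgRNA at a p under 0.05.

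*PLA2G10*, a secreted phospholipase that acts well on phosphatidylcholine, had the widest spread of the 24 genes, with a mean of 0.071 and an SD of 0.51. The spread came from sgRNA 2, which had the highest ratio in the pathway, 1.05 (library SE 0.56), at only 26.7 CPM in PRMT5lo cells and 12.4 CPM in PRMT5hi cells. It gave a one-sided p of 0.0846, and 0.0424 with the variance from the trend over abundance. In the other direction, sgRNA 17 had 52.8 CPM in PRMT5lo and 61.2 CPM in PRMT5hi cells (one-sided p of 0.0312, and 0.269 with the variance trend). When sgRNAs under 20 CPM were left out, the mean of *PLA2G10* was -0.092. *PLA2G7* encodes an enzyme that inactivates platelet-activating factor rather than releasing arachidonic acid. Its mean was 0.083 (SD 0.29), with sgRNA 2 at 110 CPM in PRMT5lo and 83.0 CPM in PRMT5hi cells and sgRNA 6 at 250 CPM and 325 CPM, each at an unadjusted p under 0.05 and in opposite directions.

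The cyclooxygenases stood on opposite sides of 0. *PTGS2*, the inducible cyclooxygenase, had the lowest mean of the pathway, -0.247 (SD 0.25 over sgRNAs, library SE 0.14), a 1.19-fold lower abundance in PRMT5lo cells. Only 36 of 1420 genes had a lower mean, and the value fell just short of the limit of -0.25. Of its 7 sgRNAs 6 were below 0. The largest ratios belonged to sgRNA 4, with 23.2 CPM (library SE 6.27) in PRMT5lo cells and 36.9 CPM (SE 3.35) in PRMT5hi cells, and to sgRNA 6, with 65.6 CPM (SE 16.7) and 94.0 CPM (SE 22.4). Smaller ones belonged to sgRNA 1 with 60.1 CPM in PRMT5lo and 64.8 CPM in PRMT5hi cells, sgRNA 2 with 53.6 and 62.1 CPM, sgRNA 5 with 31.7 and 37.9 CPM and sgRNA 7 with 203 and 211 CPM. Above 0 stood sgRNA 3, with 134 CPM in PRMT5lo and 129 CPM in PRMT5hi cells. No sgRNA against *PTGS2* reached a one-sided p under 0.05, and the gene had a p of 0.155 toward PRMT5hi (adjusted p of 0.726). The sgRNAs with the largest ratios were thus those of low abundance or wide spread between libraries, and omission of any 1 sgRNA gave means between -0.30 and -0.18.

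*PTGS1*, the constitutive cyclooxygenase, had a mean of 0.081 (SD 0.27, library SE 0.098), which came from sgRNA 1 and sgRNA 3. These had 68.1 and 62.0 CPM in PRMT5lo cells, against 50.1 and 44.6 CPM in PRMT5hi cells, and the median ratio of the gene was -0.028. Its p was 0.309 toward PRMT5lo. *PTGS2* and *PLA2G4A*, whose means were the lowest and the highest of the pathway, are neighbors on chromosome 1, where *PTGS2* spans 186671791 to 186680423 and 149 kb separate the annotated genes. *PTGES*, the inducible prostaglandin E synthase that acts on the product of the cyclooxygenases, had a mean of 0.041 (SD 0.22). *TBXAS1*, the thromboxane synthase, had a mean of 0.045 (SD 0.16). For neither gene was any sgRNA at a p under 0.05, and none of the 28 sgRNAs against the 4 genes of prostanoid synthesis was.

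In the lipoxygenase branch, 3 of 4 means were above 0. *ALOX15*, a lipoxygenase that oxygenates arachidonic and linoleic acid, was the only gene with more than 1 sgRNA at an unadjusted p under 0.05 in the same direction. Its sgRNA 7 had 133 CPM (library SE 10.9) in PRMT5lo cells and 86.7 CPM (SE 2.29) in PRMT5hi cells, a log2 ratio of 0.62 (SE 0.12). sgRNA 3 against *ALOX15* had 186 CPM (SE 7.35) and 153 CPM (SE 7.05), a ratio of 0.28 (SE 0.087). Both gave a one-sided p under 0.01, 0.00936 for sgRNA 7 and 0.00888 for sgRNA 3 (adjusted p of 0.594 and 0.584). The variance of sgRNA 7 in PRMT5hi cells was at the lower bound. With variances from the trend over abundance the p-values were 0.0140 and 0.0816. Of the other sgRNAs against *ALOX15*, only sgRNA 4 was above 0, by less than 1 library SE (ratio 0.17, SE 0.21). In PRMT5lo and PRMT5hi cells, sgRNA 1 had 70.5 and 76.1 CPM, sgRNA 2 had 45.1 and 52.5 CPM and sgRNA 4 had 96.8 and 85.7 CPM. sgRNA 5 had 113 CPM in PRMT5lo and 117 CPM in PRMT5hi cells, and sgRNA 6 had 124 and 128 CPM. The gene mean was 0.093 (SD 0.29, library SE 0.074), with only 3 of 7 sgRNAs above 0 and a median ratio of -0.046. The combined one-sided p was 0.0347 by Fisher's method (adjusted p of 0.508), and it was 0.213 without sgRNA 3. Without sgRNA 7 the gene mean was 0.0054. *ALOX15* lies on chromosome 17 from 4630919 to 4641678.

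The 5-lipoxygenase and its partner differed in sign. *ALOX5*, which makes leukotriene A4, had a mean of 0.089 (SD 0.16, library SE 0.11), with 5 of 7 sgRNAs above 0 and none at a p under 0.05. *ALOX5AP*, the membrane protein that presents arachidonic acid to this lipoxygenase, had the second lowest mean of the pathway, -0.14 (SD 0.25, library SE 0.096). It also had the smallest Fisher p of the pathway toward PRMT5hi, 0.0911 (adjusted p of 0.647). Its sgRNA 6 stood at 77.2 CPM (library SE 9.56) in PRMT5lo cells and 119 CPM (SE 12.6) in PRMT5hi cells (ratio -0.62, SE 0.23, one-sided p of 0.0194, adjusted p of 0.707). Without this sgRNA the mean was -0.056 and the p 0.330. Of the others, sgRNA 2 had 60.0 CPM in PRMT5lo and 72.6 CPM in PRMT5hi cells, sgRNA 3 had 118 and 132 CPM, and sgRNA 4 had 101 and 91.1 CPM. Nearly even were sgRNA 1 with 34.9 CPM in PRMT5lo and 34.4 CPM in PRMT5hi cells, sgRNA 5 with 242 and 247 CPM and sgRNA 7 with 194 and 198 CPM. *ALOX5AP* lies on chromosome 13 from 30713485 to 30764426. *LTA4H*, which converts leukotriene A4 to leukotriene B4, had a mean of 0.033 (SD 0.25), and its sgRNA 7 had 86.1 CPM in PRMT5lo and 68.9 CPM in PRMT5hi cells (one-sided p of 0.0440 and, with the variance trend, 0.159).

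The receptors that signal mainly through Gq and calcium had a median gene mean of -0.045, with 3 of 4 below 0. The prostaglandin F receptor *PTGFR* had the lowest mean of all receptors, -0.11 (SD 0.20, library SE 0.085). Its sgRNA 6 had 198 CPM in PRMT5lo and 259 CPM in PRMT5hi cells (ratio -0.38, one-sided p of 0.0202, adjusted p of 0.712). The thromboxane receptor *TBXA2R* had a mean of -0.074 (SD 0.21) and, beside *PTGS2*, was the only gene with 6 of 7 sgRNAs on one side of 0. One of these, sgRNA 2, had 87.9 CPM in PRMT5lo and 111 CPM in PRMT5hi cells (one-sided p of 0.0349). The cysteinyl leukotriene receptor *CYSLTR1*, the target of the leukotriene antagonists used in asthma, had a mean of -0.016 (SD 0.19), and its most abundant sgRNA, sgRNA 7, stood at 262 CPM in PRMT5lo and 324 CPM in PRMT5hi cells (one-sided p of 0.0142). For *PTGER1*, a prostaglandin E2 receptor, the mean was 0.011 (SD 0.17). Combined over sgRNAs, the p of *TBXA2R* toward PRMT5hi was 0.157 and that of *PTGFR* 0.130.

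The receptors that raise cyclic AMP through Gs had a median gene mean of -0.051. *PTGIR*, the prostacyclin receptor, had a mean of -0.091 (SD 0.26, library SE 0.089) and the smallest p toward PRMT5hi among the receptors, 0.126 (adjusted p of 0.709). Its sgRNA 1 had 45.2 CPM (library SE 2.80) in PRMT5lo cells and 62.2 CPM (SE 4.65) in PRMT5hi cells (ratio -0.45, one-sided p of 0.0129). In the same direction lay sgRNA 3 with 137 CPM in PRMT5lo and 165 CPM in PRMT5hi cells, sgRNA 7 with 43.0 and 54.0 CPM and, within 1 library SE, sgRNA 6 with 162 and 164 CPM. In the other direction lay sgRNA 2 with 45.9 CPM in PRMT5lo and 41.8 CPM in PRMT5hi cells, sgRNA 4 with 108 and 93.6 CPM and sgRNA 5 with 93.8 and 88.2 CPM, all within 1 library SE. *PTGIR* lies on chromosome 19 from 46610687 to 46625089, and its mean was -0.031 without sgRNA 1.

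*PTGDR* and *PTGER2*, receptors for prostaglandins D2 and E2, are neighbors 33 kb apart on chromosome 14, and each mean rested on 1 or 2 sgRNAs. *PTGER2* had a mean of -0.11 (SD 0.35), which became 0.017 without sgRNA 3. This sgRNA had the lowest ratio of the pathway, -0.85 (library SE 0.26), with 38.2 CPM (SE 2.63) in PRMT5lo cells and 69.9 CPM (SE 12.1) in PRMT5hi cells (one-sided p of 0.0383). *PTGDR* had a mean of 0.048 (SD 0.40), the second widest spread of the 24 genes. Its sgRNA 4 had 59.7 CPM in PRMT5lo and 34.5 CPM in PRMT5hi cells, a ratio of 0.78 (library SE 0.29, one-sided p of 0.0132 toward PRMT5lo). In the opposite direction, sgRNA 6 against *PTGDR* had 77.6 CPM and 101 CPM, a ratio of -0.37 (library SE 0.13, one-sided p of 0.0188 toward PRMT5hi). *PTGER4*, which also binds prostaglandin E2 and couples to Gs, had a mean of -0.011 (SD 0.16), the smallest spread of the 24 genes. Apart from the sgRNAs that the naming rule covers, those singled out in the accounts of *PLA2G2A*, *PLA2G10*, *PLA2G7*, *PTGS1*, *LTA4H* and these receptors were chosen after their values were seen.

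The receptors that lower cyclic AMP through Gi had means of 0.010 for *PTGER3* (SD 0.24), another prostaglandin E2 receptor, and -0.062 for *PTGDR2* (SD 0.24), the prostaglandin D2 receptor of type 2 helper T cells and eosinophils. No sgRNA against either gene had a p under 0.05. The 4 receptors for prostaglandin E2 thus had means of 0.011, -0.11, 0.010 and -0.011 (*PTGER1* to *PTGER4*), and none had a one-sided p under 0.30 in either direction. The receptors for prostaglandin D2 had p-values of at least 0.181 in either direction.

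Over the 168 sgRNAs, 8 had a one-sided p under 0.05 toward PRMT5lo and 10 toward PRMT5hi, compared with 5.66% and 6.00% of the 9929 targeting sgRNAs. These counts are 4.76% and 5.95% of the pathway's sgRNAs. Of the 500 control sgRNAs, 9.0% passed toward PRMT5lo and 6.60% toward PRMT5hi, both above the pathway's shares. Controls thus passed more often than a p limit of 0.05 implies, so an unadjusted p under it carries little weight here. The controls were also more abundant, with a median of 123 CPM in PRMT5lo cells against 88.1 CPM for the pathway, so the 2 sets are not alike. With the variance trend the pathway's shares were 2.98% and 4.76%, against 3.04% and 3.40% of all targeting sgRNAs. Of the sgRNAs that had passed, 4 of 8 toward PRMT5lo and 6 of 10 toward PRMT5hi also passed with the trend. Those lost were sgRNA 3 against *ALOX15*, sgRNA 7 against *LTA4H*, sgRNA 1 against *PLA2G2A*, sgRNA 2 against *PLA2G7*, sgRNA 17 against *PLA2G10*, sgRNA 6 against *PTGDR*, sgRNA 1 against *PTGIR* and sgRNA 2 against *TBXA2R*. Gained were sgRNA 2 against *PLA2G10*, sgRNA 6 against *PTGS2* and sgRNA 2 against *PTGDR2*. In the first test 7.14% of the sgRNAs for synthesis and 1.43% of those for receptors passed toward PRMT5lo, and 4.08% and 8.57% toward PRMT5hi, a split that was not tested. At a p under 0.01, 3 passed toward PRMT5lo and 1 toward PRMT5hi, against 1.68% and 1.64% of targeting sgRNAs, and the 4 were those against *PLA2G4A*, *ALOX15* and *PLA2G2A* described above. None of the 168 passed an adjusted p of 0.05 over all targeting sgRNAs. The variance was at the lower bound for 30 of the 168 in PRMT5lo and 25 in PRMT5hi cells, against 17.6% and 12.1% of all sgRNAs. Beside those flagged above, this held at a p under 0.05 for sgRNA 7 against *LTA4H* and sgRNA 6 against *PLA2G7* in PRMT5lo cells. In PRMT5hi cells it held for sgRNA 7 against *CYSLTR1*, sgRNA 17 against *PLA2G10*, sgRNA 6 against *PTGDR* and sgRNA 2 against *TBXA2R*. For 10 of the 24 genes no sgRNA had a p under 0.05, and *PLA2G2A*, *PLA2G7* and *PTGDR* had such sgRNAs in both directions. No gene of the pathway had all 7 sgRNAs on one side of 0. The matching shares of all targeted genes are not reported here, so these gene counts cannot be set against a background.

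The abundance of the sgRNAs was near that of the whole library. Their median was 88.1 CPM in PRMT5lo cells and 90.1 CPM in PRMT5hi cells, against 84.9 and 85.0 CPM over all targeting sgRNAs and 123 and 123 CPM over the 500 control sgRNAs. The range was wide, from 9.65 CPM in PRMT5lo and 9.22 CPM in PRMT5hi cells for sgRNA 4 against *TBXAS1* to 342 CPM in PRMT5lo cells for sgRNA 4 against *PLA2G2D*. The spread of the log2 ratios narrowed with abundance, from an SD of 0.36 for the 28 sgRNAs under 50 CPM, through 0.28 for the 71 between 50 and 100 CPM, to 0.20 for the 69 at 100 CPM or more. The same SDs over all targeting sgRNAs were 0.42, 0.28 and 0.22. The depth, recovered from the lower bound of the variances, averaged 4779349 reads per PRMT5lo library and 4041715 per PRMT5hi library. At this depth the counting error of *PLA2G4A* sgRNA 2, with 1174 reads in PRMT5lo and 574 in PRMT5hi cells, was 0.073 on the log2 scale. Amplified reads were counted without molecular identifiers, so this error is that of counting only.

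A further 20 genes that make, transport, break down or sense these lipids, or bind platelet-activating factor, were listed by known role. None was called at the limits above. At an unadjusted Fisher p under 0.05, 1 passed toward PRMT5lo and 4 toward PRMT5hi, beside the 8.59% and 9.30% of all genes, and 7 of 20 means were above 0, with a median of -0.035. Toward PRMT5lo, *CYP4F3*, which breaks down leukotriene B4, had a mean of 0.12 (SD 0.10) and a one-sided p of 0.163 (adjusted p of 0.782). Toward PRMT5hi the largest means were -0.22 (SD 0.31) for *AKR1B1*, an aldo-keto reductase with prostaglandin F synthase activity, and -0.22 (SD 0.26) for *MGST3*, a microsomal glutathione transferase that can conjugate leukotriene A4. *MGST3* had a one-sided p of 0.000575 (adjusted p of 0.103) with 3 of 7 sgRNAs at a p under 0.05 toward PRMT5hi, and *AKR1B1* of 0.0812 (adjusted p of 0.641). *MGST3* missed the limit on the mean, not that on the p. The others that passed toward PRMT5hi were *AKR1C3*, another aldo-keto reductase with prostaglandin F synthase activity (mean -0.070, one-sided p of 0.00782), the epoxide hydrolase *EPHX2* (mean -0.14, p of 0.0374) and *MGST2*, which can make leukotriene C4 (mean -0.041, p of 0.0408), and *AKR1C3* had a median ratio of 0.089, opposite in sign to its mean. The nuclear receptor *PPARG*, for which a prostaglandin D2 product is a ligand, had a mean of 0.11 (SD 0.14), and *LTB4R*, the receptor for leukotriene B4, one of 0.058 (SD 0.20), both chosen after their values were seen.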

How the data were processed

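Single-end reads were mapped to the sgRNA library sequences, counted and compared by the authors, who name the CB2 package for these steps. FastQC and hg38 are named in the submitters' processing notes, while versions were not given in the sources used here. Deposited CPM values are the authors' means of 4 libraries per population. Each deposited fraction is their estimate of an sgRNA's share of reads, and a further column holds the variance of that estimate. The deposited columns of log2 ratios, scores and p-values hold the authors' comparison and were not used. No single-library column was used, and without the sgRNA sequences, not used here, matches to paralogs were not examined.

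Each sgRNA's fraction difference, divided by its standard error, was referred to the t distribution with Welch's degrees of freedom, one-sided, as CB2 does. Fisher's method combined the p-values per gene, with Benjamini-Hochberg adjustment over 1420 genes or 9929 targeting sgRNAs (scipy 1.17.1, Python 3.11.15). The depth was recovered from the lower bound of the variance. The call limits follow the legend of the screen's plot, which gives positive ratios to PRMT5lo, while the methods text gives the opposite sign and a stricter p limit for PRMT5lo. Since the replicates stem from 1 transduced population, the p-values cover no more than the spread that arose after the split, from culture to sequencing. Where a variance was at the lower bound, that population contributed read counting alone. The test is approximate and does not use the pairing of the populations by culture.

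Every pathway gene was named. CPM of each sgRNA were given for the 2 genes with the smallest p and the 2 with the largest mean in each direction, and sgRNAs with a p under 0.01 were also named. Of the further genes, the 2 largest means in each direction were named, except 1 gene that is not reported here. The genes and lists were chosen with earlier results of these data known. Alternatives were centring on the control median, pseudocounts of 5 and 10, sgRNAs of 20 CPM or more only, medians over sgRNAs, Stouffer's method, other p limits, a variance trend over 20 abundance bins and leaving out each sgRNA. Gene positions are those of RefSeq for GRCh38.p14, in which all 24 symbols were matched.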

Additional observations from a re-analysis of the deposited data

How the results depend on the processing

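The count of pathway genes called was 0 under every alternative run for it. These were pseudocounts of 5 and 10, at least 20 CPM, centring on the control median, medians over sgRNAs and Stouffer's method. The rest were a p under 0.05 with the mean limit, an adjusted p under 0.10 and leaving out each sgRNA in turn. The shares of all genes called under these alternatives are not reported here. At the main limits the shares were 0.704% toward PRMT5lo and 0.845% toward PRMT5hi. Among the further 20 genes, taking the median over sgRNAs called 2, among them *MGST3* (median ratio -0.35), and the other alternatives called 0. Without the share of all genes called by medians, these 2 cannot be set against a background. The median gene mean ran from -0.011 to 0.013 over the pathway, from 0.021 to 0.058 for synthesis and from -0.050 to -0.018 for the receptors, so the sign held for the last 2 and not for the first. With the variance trend, 5 sgRNAs had a p under 0.05 toward PRMT5lo and 8 toward PRMT5hi, in place of 8 and 10, and the pathway's share toward PRMT5hi then lay above that of all targeting sgRNAs (4.76% and 3.40%). The sign of the gene mean changed for 12 of 24 genes when some sgRNA was left out, for 9 with medians, for 2 with centring and for 1 each with a pseudocount of 10 and with at least 20 CPM. No paired analysis was possible because the deposited columns pool the 4 libraries of a population, and for the same reason no library could be left out. Low abundance limits what could be seen, since the median library SE of a pathway ratio was 0.35 under 50 CPM and 0.17 at 100 CPM or more.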
